A study of Mus musculus with 2 samples.

Results

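Transcription factors that are best known from B lymphocytes, together with close relatives of theirs, were read in sensory neuron preparations of the mouse dorsal root ganglion (DRG). The group holds 10 genes of the 24411 in the files (Ebf1, Ebf2, Ebf3, Prdm1, Prdm12, Bcl11a, Bcl11b, Bach2, Irf4 and Pax5), found by exact gene symbol. They are represented by 21 of the 35034 RefSeq transcripts. All 10 genes and all 21 transcripts had a row in both files. The genes were chosen by their role, and on the TPM they had in these same libraries, so their levels are a description and were not tested.

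The study asked whether DRG neurons of immunized mice could make antibody themselves. C57BL/6 mice (C57BL/6J in the study's methods, which give an age of 6 to 8 weeks), with no engineered allele, were given 200 µl of saline with 50% alum, which is an aluminium adjuvant, by the intraperitoneal route on day 0 and again on day 14. The immunized group also received 100 µg of keyhole limpet hemocyanin (KLH), a mollusc protein that serves as a foreign antigen, in each injection. Thoracic and lumbar DRGs were taken on day 28, digested with collagenase/dispase, spun over BSA to enrich neurons, and stripped of B lymphocytes with magnetic beads, in both groups alike. RNA of 10 mice was pooled per group and made into 1 library, so there were no replicates, no spread between mice could be measured, and no difference between the pools was tested. The label of the control library calls it naïve and also alum alone. It is called the alum-injected pool here, after the study's methods, and wherever a pair of values is given for a gene, the alum-injected pool comes first and the alum + KLH-immunized pool second. TPM, a scaled count of transcripts, divides the reads of a transcript by its length and scales each library to the same total, so levels of different genes can be set side by side. The study's methods state a minimum read depth per library, but TPM carries no counts, and how many reads lie behind a value is not known here. In RNA from a mixed preparation, fewer cells of a type and less RNA per cell cannot be told apart.

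In a B lymphocyte these factors act in sequence. EBF1 and PAX5 open and hold the B-cell gene program, BCL11A is needed early in the lineage, BACH2 keeps activated B cells from turning into plasma cells, and IRF4 and BLIMP-1 (encoded by Prdm1) drive that last step. Neurons use several of the same proteins or their paralogues. EBF factors were also found as Olf-1 in olfactory neurons, PRDM12 is needed for the nociceptor lineage and its loss causes an inability to feel pain, and BCL11A and BCL11B shape neurons of the cortex and spinal cord.

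The 10 regulators are described here as a high, a middle and a low set, with 3 TPM as the line between middle and low. That line is no gap in the values. From Prdm1 to Bcl11a, across it, the step was 1.88-fold and 1.48-fold. From Bcl11b to Prdm1, within the middle set, it was 2.01-fold and 2.52-fold. Ebf1 stood at 139 and 135 TPM, Ebf3 at 94.5 and 93.9 TPM, and Prdm12 at 69.7 and 61.9 TPM. Those 3 genes held 92.3% of the summed TPM of the 10 genes in each pool. The middle set was Bach2 at 9.92 and 9.56 TPM, Bcl11b at 7.61 and 7.75 TPM, and Prdm1 at 3.79 and 3.07 TPM. The low set held Bcl11a at 2.02 and 2.08 TPM, Ebf2 at 1.74 and 1.53 TPM, and Irf4 at 0.200 and 0.114 TPM. Pax5 came last, with 0.0565 and 0.0487 TPM. Ebf1 and Pax5, which B lymphocytes use together, were the first and the last in this order. The order rests on the values used in choosing the genes and tests nothing about that pair. The order of the 10 genes was the same in both pools. No gene's 2 values overlapped those of the next gene, although the narrowest gaps were 1.16-fold between Bcl11a and Ebf2 in the alum-injected pool and 1.23-fold between Bach2 and Bcl11b in the other, and gaps of that size cannot be judged without replicates.

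**Figure D1:**
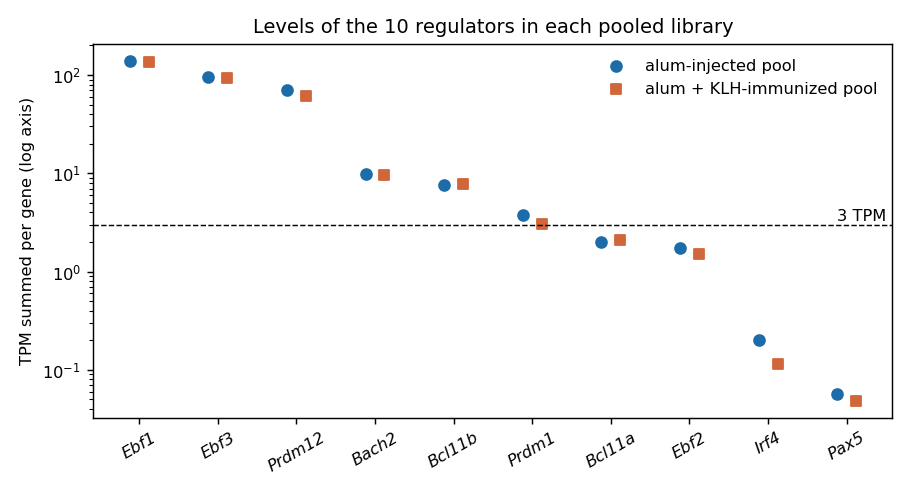
TPM summed per gene (vertical log axis) for each of the 10 regulators (horizontal axis), with circles for the alum-injected pool and squares for the alum + KLH-immunized pool, 1 library each and so no error bars. Ebf1, Ebf3 and Prdm12 lie above 60 TPM, and the dashed line at 3 TPM passes just under Prdm1.

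The study called expression above 3 TPM detectable, and the limit is applied here to TPM summed per gene. By symbol, 11454 and 11302 genes were above it in the pools. The study reported more genes above it, and the reason was not examined. Of the 10 regulators, 6 were above this level in both pools (Ebf1, Ebf3, Prdm12, Bach2, Bcl11b and Prdm1) and 4 were below it in both, while 46.9% of all genes in the files were above it in the alum-injected pool, 46.3% in the alum + KLH-immunized pool and 45.5% in both. Ebf1 was exceeded by 6.48% and 6.71% of all genes. Ebf3 was exceeded by 9.22% and 9.29%, and Prdm12 by 11.9% and 13.0%. Irf4 was exceeded by 67.4% and 70.5% of genes and Pax5 by 74.0% and 74.4%.

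The EBF family comprises DNA-binding proteins with a helix-loop-helix dimerization domain. Ebf1 has 4 transcripts in the files, and its most abundant one, NM_001290710, lies on chromosome 11 from 44617317 to 45004995 of GRCm38 (the assembly of mm10) on the plus strand, in 16 exons. That transcript was at 132 and 128 TPM, or 95.2% and 95% of the gene total. Ebf3, on the minus strand of chromosome 7 (137193721 to 137314445), was also carried by a single transcript of 16 exons, NM_010096, at 93.2 and 93.5 TPM, or 98.6% and 99.6% of its total. Among genes with 2 or more transcripts above 3 TPM in both pools, the same transcript held at least 90% of the total in both pools in 33.4%. Ebf1, Ebf3 and Bcl11b were the regulators above 3 TPM with several transcripts, and all 3 were of this kind.

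The leading transcripts of Ebf1 and Ebf3 shared a structural feature that the choice of genes had not used. By their counterparts in the GENCODE M21 annotation, both use the shorter form of exon 8, which measures 118 bases in each. The longer form adds 24 bases in Ebf1 (chr11:44883932-44883955, plus strand) and 27 bases in Ebf3 (chr7:137231164-137231190, minus strand), inside the coding sequence. The lines below run from 30 bases before the end of the shorter exon 8 to 30 bases into exon 9, with the added bases of the longer form in capitals. Ebf2, whose matching exon also measures 118 bases (chr14:67387878-67387995, plus strand), is given as its annotated transcript reads, with no added bases.
Ebf1 longer form: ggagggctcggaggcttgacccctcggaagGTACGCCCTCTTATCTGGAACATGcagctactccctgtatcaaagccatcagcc
Ebf1 shorter form: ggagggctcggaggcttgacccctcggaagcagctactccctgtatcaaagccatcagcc
Ebf3 longer form: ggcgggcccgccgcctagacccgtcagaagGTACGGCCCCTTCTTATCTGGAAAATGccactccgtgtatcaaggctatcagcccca
Ebf3 shorter form: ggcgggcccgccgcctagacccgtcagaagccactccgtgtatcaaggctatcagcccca
Ebf2: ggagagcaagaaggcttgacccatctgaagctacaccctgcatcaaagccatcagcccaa

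Ebf1 transcripts whose GENCODE counterparts carry the added 24 bases summed to 6.74 and 6.79 TPM, or 4.84% and 5.02% of Ebf1. For Ebf3, the transcript with the added 27 bases, NM_001113415, stood at 1.30 and 0.382 TPM, or 1.38% and 0.407%. As kallisto divided the TPM, transcripts with the shorter form carried over 90% of both genes in both pools. The division among transcripts rests on few sequence words of the leading ones. kallisto works on short words of the reads, by default 31 bases long, and in the annotation 29 of the 2834 words of the leading Ebf1 transcript occur in no other Ebf1 transcript of the files, as do 29 of the 4808 words of the leading Ebf3 transcript. The Ebf1 transcripts also differ in where they end, with 2864 bases in the leading one against 3422 and 5981 bases in the counterparts of the other 3.

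Ebf3 differed from Ebf1 in a later exon. Exon 15 measured 195 bases in the leading Ebf1 transcript, while the leading Ebf3 transcript has a form of 90 bases that leaves out 108 bases (chr7:137198582-137198689, minus strand) present in the other Ebf3 transcripts, NM_001113415 and NM_001113414, the second of which had 0.0116 TPM without KLH and was listed at 0 with it. The bases left out are shown in capitals, with 30 bases of the neighbouring coding sequence on each side.
Ebf3 exon 15: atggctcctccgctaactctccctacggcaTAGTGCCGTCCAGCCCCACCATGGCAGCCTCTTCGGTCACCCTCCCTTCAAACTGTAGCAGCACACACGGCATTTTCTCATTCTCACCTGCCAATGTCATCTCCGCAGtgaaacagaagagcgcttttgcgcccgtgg

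Reads of one EBF gene could be assigned to another only where the sequences are identical. The longest run that the coding sequences of Ebf1 and Ebf3 have in common is 24 bases, in exon 1 of Ebf1 (chr11:44618230-44618253, plus strand), and it is shown in capitals with 15 bases on each side. No word of 31 bases was common to the coding sequences of Ebf1 and Ebf2, Ebf1 and Ebf3, Ebf2 and Ebf3, or Ebf1 and Ebf4, read on a single transcript per gene. Over the whole leading Ebf3 transcript, 5.62% of the words also occur in annotated transcripts of other genes, mainly the gene model Gm45278. For the leading Ebf1 transcript the share was 0.706%.
Ebf1: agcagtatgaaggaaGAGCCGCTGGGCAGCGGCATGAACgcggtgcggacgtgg
Ebf3: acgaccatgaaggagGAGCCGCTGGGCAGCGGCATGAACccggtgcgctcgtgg

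Ebf2, a factor of brown fat and of migrating neurons, was low as a gene, and its TPM sat on different transcripts in the pools. Its transcript NM_010095 stood at 1.34 and 0.000264 TPM, while NM_001276387 had the opposite order, with 0.401 and 1.53 TPM. NM_010095 thus held 76.9% of Ebf2 in the alum-injected pool and NM_001276387 held 99.98% in the other, with the gene total at 1.74 and 1.53 TPM. Both RefSeq transcripts have the same GENCODE counterpart on chromosome 14 (67233292 to 67429777, plus strand), so no base that separates them could be shown here. In the annotation, 8.61% of the words of that counterpart also occur in transcripts of the gene model Gm10860. A change of the leading transcript was found in 18% of the 488 genes with 2 or more transcripts and a total of 1 to 3 TPM in both pools, and in 7.64% of the 3392 such genes above 3 TPM. Ebf4, the remaining paralogue, was at 2.32 and 1.93 TPM. Both EBF cofactors listed were above 3 TPM in both pools, beside 45.5% of all genes. Zfp521 was at 16.5 and 16.4 TPM and Zfp423 at 3.35 and 3.09 TPM. They are zinc finger proteins that bind EBF factors and restrain or redirect them.

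**Figure D2:**
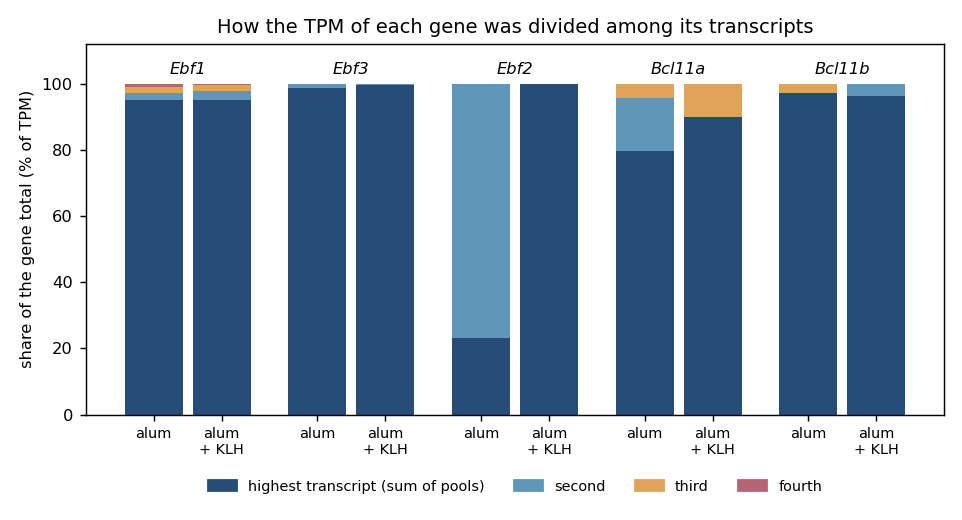
Share of each gene's summed TPM (vertical axis, percent) held by each of its transcripts in the alum-injected and the alum + KLH-immunized pool, for the 5 regulators with several transcripts. A single transcript fills over 90% of the bars of Ebf1, Ebf3 and Bcl11b, and the 2 transcripts of Ebf2 exchange places between the pools.

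PRDM proteins carry a PR domain followed by zinc fingers and repress genes through partner enzymes. Prdm12 (NM_001123362, chromosome 2 from 31640037 to 31655795, plus strand, 5 exons) was the highest PRDM gene read, at 69.7 and 61.9 TPM, and stood 18.4-fold and 20.2-fold above Prdm1. Prdm1 (NM_007548) was the sixth in order at 3.79 and 3.07 TPM. Between them came Prdm4 at 43.9 and 42.0 TPM, Prdm2 at 31.6 and 29.2 TPM, Prdm8 at 15.0 and 16.3 TPM, and Prdm9 at 6.28 and 6.55 TPM. The plasma cell regulator was therefore the lowest PRDM gene that stayed above 3 TPM in both pools, and its value in the alum + KLH-immunized pool was close to that threshold. Prdm6 and Prdm13 were listed at 0 in both pools. The coding sequences of Prdm1 and Prdm12 shared no word of 31 bases, and their longest common run was 11 bases. Prdm12 shared 7.99% of its words with annotated transcripts of other genes.

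Of the 9 enzymes and corepressors listed as partners of PRDM proteins, 8 were above 3 TPM in both pools, beside 45.5% of all genes. Hdac2 was the highest at 306 and 307 TPM, followed by Tle1 at 96.8 and 102 TPM and Tle4 at 66.2 and 64.7 TPM. Ehmt2, which encodes the histone methyltransferase G9a, was the one below, at 2.29 and 1.65 TPM, and also stood below Prdm1, while its partner Ehmt1 was at 4.78 and 4.86 TPM.

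Bcl11b, a zinc finger repressor that commits thymocytes to the T lineage and also marks corticospinal neurons, was 3.76-fold and 3.73-fold above its paralogue Bcl11a. Nearly all of Bcl11b sat on NM_001286343, at 7.4 and 7.47 TPM, or 97.3% and 96.4% of the gene. Its GENCODE counterpart, on the minus strand of chromosome 12 (107915222 to 108003414), has only 2 exons and joins exon 1 directly to the last exon, while the counterparts of the other transcripts have 3 and 4 exons. The 3-exon transcript, NM_021399, held 3.65% in the alum + KLH-immunized pool, and the 4-exon transcript, NM_001079883, held 2.74% in the alum-injected pool. The bases at the join are shown with the end of exon 1 (chr12:108003086-108003414) in capitals, since words across this join set the transcripts apart. The 2-exon form has 30 words of 2492 that no other Bcl11b transcript of the files holds.
Bcl11b 2-exon form: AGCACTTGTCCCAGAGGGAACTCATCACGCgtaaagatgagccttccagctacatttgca
Bcl11b 3-exon form: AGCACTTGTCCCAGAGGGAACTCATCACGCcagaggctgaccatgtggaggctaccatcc

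Bcl11a, which silences fetal globin and is required for B-cell development, stayed under 3 TPM. Its transcript NM_001242934, with the longest coding sequence of the 4 (2508 bases) and a position on chromosome 11 from 24078173 to 24168429 on the plus strand, was at 1.61 and 1.86 TPM, or 79.7% and 89.8% of the gene. NM_001159290 had 0.320 TPM without KLH and was listed at 0 with it, NM_001159289 was at 0.0900 and 0.212 TPM, and NM_016707 was listed at 0 in both. All 10 genes listed as BCL11 partners in the NuRD and BAF chromatin complexes were above 3 TPM in both pools, beside 45.5% of all genes. These partners ranged up to Rbbp7 at 273 and 264 TPM and included Actl6b, the neuronal actin-like subunit of BAF, at 6.60 and 5.31 TPM.

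Bach2 (NM_001109661, chromosome 4 from 32417435 to 32586108, plus strand, 5 exons) is a basic leucine zipper repressor that binds DNA as a dimer with small MAF proteins. It was at 9.92 and 9.56 TPM, below its paralogue Bach1, the heme-regulated repressor of antioxidant genes, at 47.8 and 53.4 TPM. The small MAF genes were at 59.4 and 65.9 TPM for Mafg, 30.5 and 26.3 TPM for Maff, and 17.3 and 13.7 TPM for Mafk, each above Bach2 in both pools. Bach2 shared 7.48% of its words with annotated transcripts of other genes, mainly its antisense neighbour Bach2os.

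Irf4 and Pax5 were the lowest members of the group. Irf4 (NM_013674, chromosome 13 from 30749226 to 30766976, plus strand, 9 exons) was also the lowest IRF gene read, at 0.200 and 0.114 TPM. Among the others, Irf9, a subunit of the interferon-activated complex ISGF3, was at 39.6 and 39.3 TPM, Irf1 at 37.8 and 29.5 TPM, and Irf2 at 31.6 and 30.8 TPM. Irf8, the closest relative of Irf4, was at 1.09 and 1.23 TPM. Pax5 (NM_008782, chromosome 4 from 44524757 to 44710487, minus strand, 10 exons) belonged to a family with no gene above 3 TPM in either pool. The highest was Pax6 at 1.20 and 1.22 TPM, and Pax4 was listed at 0. Neither Irf4 nor Pax5 shared a word of 31 bases with another gene. Without read counts, these values place both genes below the threshold and do not show that they had no reads.

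**Figure D3:**
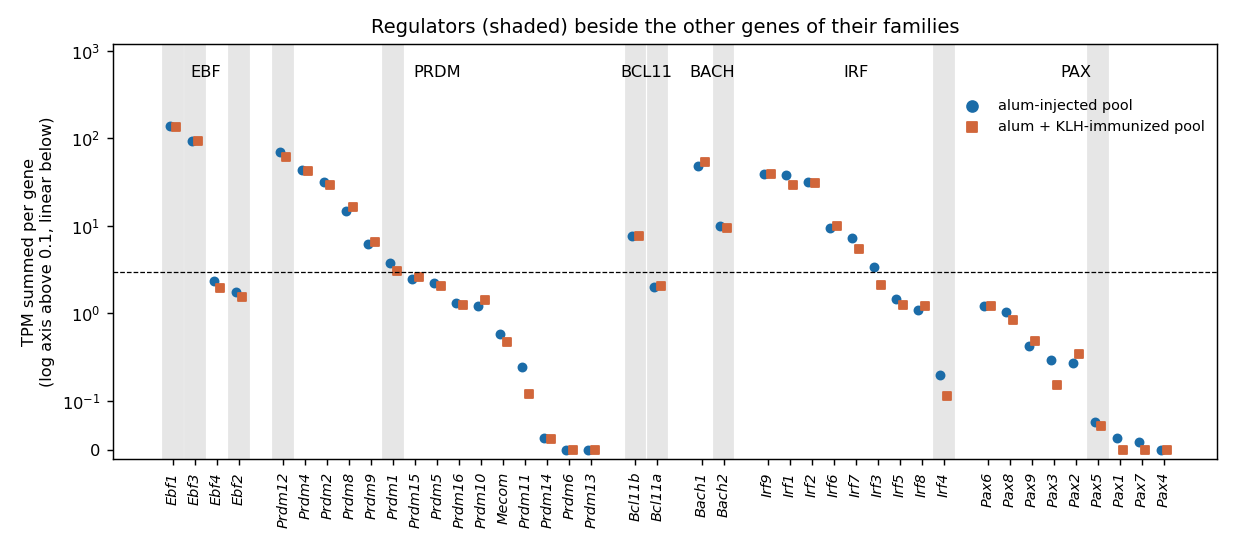
TPM summed per gene (vertical axis, logarithmic above 0.1 TPM and linear below) for the EBF, PRDM, BCL11, BACH, IRF and PAX families, with circles for the alum-injected pool and squares for the alum + KLH-immunized pool, and the 10 regulators shaded. Ebf1 and Prdm12 head their families, while Irf4 is the lowest IRF gene and no PAX gene reaches the dashed line at 3 TPM.

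Of 20 other B-lineage transcription regulators listed, 10 were above 3 TPM in both pools, a share close to the 45.5% of all genes. They were led by Id2, an inhibitor of helix-loop-helix proteins, at 245 and 247 TPM. Xbp1, a regulator of secretion that plasma cells use and many other cells share, was at 72.0 and 72.6 TPM, and Mef2c at 32.8 and 35.5 TPM. None of the 10 was at least 2-fold apart between the pools.

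Of 18 transcription factors of sensory neurons listed, 10 were above 3 TPM in both pools, beside 45.5% of all genes, and Mafa was listed at 0. The regulators had been chosen on their TPM in these same libraries, so their places beside these factors partly follow from that choice and test nothing. The high regulators lay among the highest of these factors. Only Pou4f1, which encodes BRN3A, at 278 and 291 TPM, and Isl1 at 145 and 153 TPM exceeded Ebf1. Prdm12, at 69.7 and 61.9 TPM, stood next to Runx1, a factor of nociceptor subtypes, at 70.1 and 67.0 TPM. Of the 28 factors in the combined list, Ebf1 took rank 3, Ebf3 rank 4 and Prdm12 rank 6 in both pools, and Irf4 and Pax5 took ranks 26 and 27. The 11 nociceptor genes listed were all above 3 TPM in both pools, beside 45.5% of all genes. Calca was at 6177 and 5729 TPM, Tac1 at 1090.1 and 1097 TPM and Scn9a at 416 and 423 TPM.

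Markers of cells that could have supplied these transcripts were read in the same libraries. All 12 B lymphocyte markers were below 3 TPM in both pools, while 45.5% of all genes were above it in both. Their sum was 7.66 and 7.63 TPM. Cd79b, Blk, Vpreb3 and Cd37 were listed at 0, and the highest by their mean over the pools were Fcer2a at 2.85 and 2.78 TPM, Cr2 at 1.79 and 1.58 TPM, and Cd72 at 0.599 and 1.25 TPM. Cd79a, a gene that EBF1 activates in B lymphocytes and which was singled out after its values were seen, was at 0.508 and 0.131 TPM beside 139 and 135 TPM of Ebf1. Of 7 plasma cell markers, only Sdc1 was above 3 TPM, at 12.4 and 10.6 TPM, followed by Jchain at 1.53 and 1.92 TPM and Fkbp11 at 0.605 and 0.525 TPM, with Mzb1 at 0 and a list sum of 14.8 and 13.4 TPM. The 9 T lymphocyte markers, which bear on Bcl11b, summed to 9.0 and 8.12 TPM, with Themis at 3.29 and 2.75 TPM, Cd3d at 2.97 and 3.13 TPM, Lck at 1.34 and 1.34 TPM, and Cd3g at 0. All 10 macrophage markers were below 3 TPM and summed to 7.58 and 7.22 TPM, with Cx3cr1 the highest at 2.08 and 1.66 TPM.

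Marker lists of other cell types were read in the same way. Ebf1 and Ebf2 are also expressed by fibroblasts and mural cells of vessels. Of the 10 markers of these cells, 4 were above 3 TPM in both pools, beside 45.5% of all genes. Rgs5 was at 172 and 162 TPM and made up most of the list sum of 262 and 253 TPM. Dcn was at 63.8 and 62.6 TPM and Lum at 11.2 and 13.2 TPM, while the list median was only 2.59 and 2.53 TPM. Endothelial markers were lower, with 2 of 7 above 3 TPM in both pools, a sum of 18 and 13.5 TPM, and Emcn the highest at 5.17 and 4.46 TPM. Melanocytes, which use Irf4, showed 3 of 6 markers above 3 TPM, among them Tyrp1 at 7.99 and 7.55 TPM and Tyr at 6.02 and 6.00 TPM, with Dct and Mlana at 0 and a sum of 18 TPM in each pool. Schwann cell markers summed to 2194 and 2157 TPM, with 6 of 9 above 3 TPM in both pools, and the 6 satellite glia markers, all above it, to 1473 and 1357 TPM. All 11 pan-neuronal markers were above 3 TPM, with Nefl at 5259 and 5048 TPM, and summed to 15485 and 15260.0 TPM. The part of glia, fibroblasts, mural cells and melanocytes in the levels of the regulators was not tested.

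**Figure D4:**
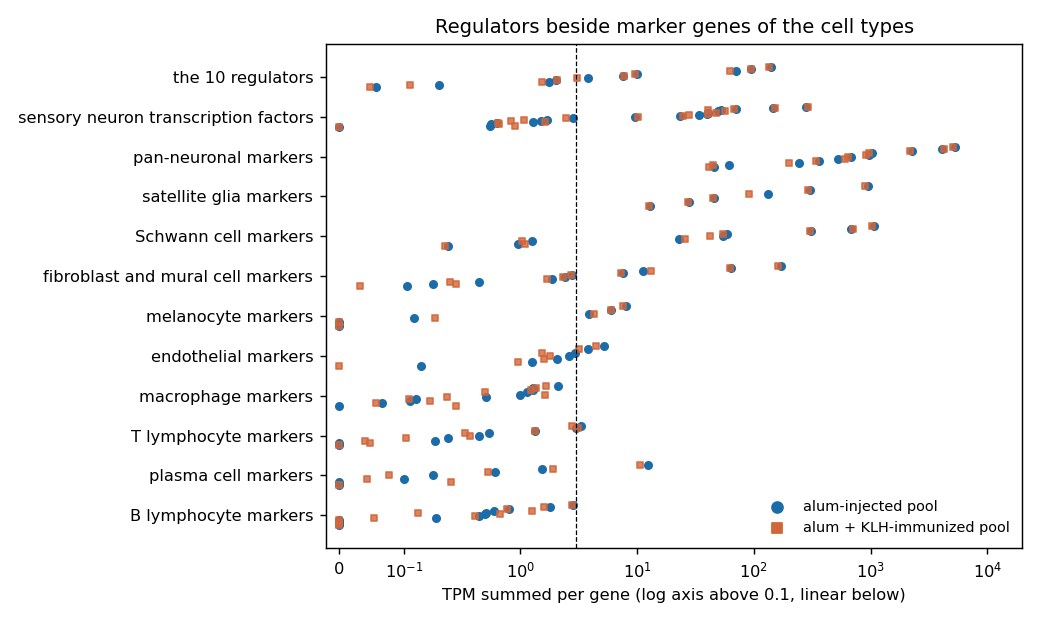
TPM summed per gene (horizontal axis, logarithmic above 0.1 TPM and linear below) for the 10 regulators, the sensory neuron transcription factors and the marker genes of each cell type, 1 point per gene and pool, with the dashed line at 3 TPM. The points of the B lymphocyte and macrophage lists all lie left of the line and those of the pan-neuronal and satellite glia lists all lie right of it.

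Between the alum-injected and the alum + KLH-immunized pool, the regulators differed little. The difference is given as a log2 ratio with 1 TPM added to each value, positive where the alum + KLH-immunized pool was higher, which understates the change of low genes. None of the 6 regulators above 3 TPM was at least 2-fold apart, a limit that 1.64% of the 11648 genes above 3 TPM in at least 1 pool passed (0.695% higher and 0.944% lower in the alum + KLH-immunized pool). The 6 ratios lay between -0.23 for Prdm1 and 0.02 for Bcl11b, with a median of -0.05 beside -0.02 over all 11648 genes. Of the 6, 5 were below 0, and so were 56.4% of all 11648 genes. With Bcl11a, Ebf2, Irf4 and Pax5 included, 8 of the 10 ratios were below 0 and the median was again -0.05. The sign of 3 small ratios turned with the scaling, for Ebf3 to 0.01 once TPM was rescaled to a median pool ratio of 1, and for Bcl11a and Bcl11b to -0.03 and -0.05 when TPM was taken relative to Hprt.

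To show how far genes of like level differed between the same libraries, the regulators were read against the 500 genes closest to each in mean level, and the SD of those genes' ratios was taken. Prdm12 was the only regulator whose ratio exceeded this SD, at -0.17 beside 0.14, and 14.8% of those 500 genes were at least as far apart. Prdm1, the plasma cell regulator, had a ratio of -0.23 beside an SD of 0.52, and 28% of its neighbours were as far apart. For Ebf1 the ratio was -0.04 beside 0.12 and for Ebf3 -0.01 beside 0.14, with 65.2% and 91% of neighbours as far apart. Bach2 had -0.05 beside 0.36 and Bcl11b 0.02 beside 0.52. Irf4 in the alum + KLH-immunized pool was 57.1% of its value in the alum-injected pool, a ratio of -0.11 beside 0.17 once 1 TPM was added, at a level where both values were under 0.3 TPM. The SDs were uneven between genes of near level, with 0.52 for Bcl11b but 0.22 for Irf7, which was at 7.28 and 5.40 TPM. These SDs describe the 2 libraries and are no error of the mice, so neither a difference nor its absence can be assigned to the immunization.

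**Figure D5:**
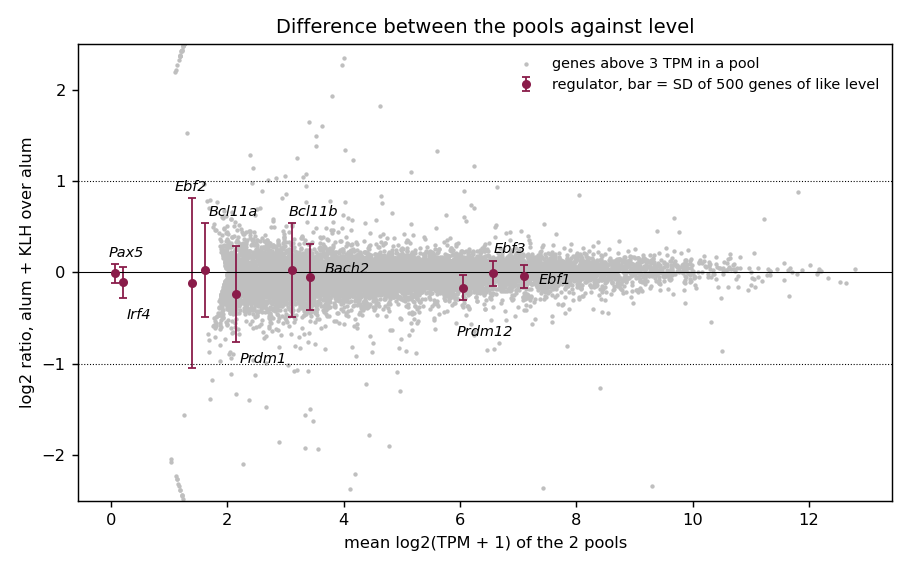
Log2 ratio of alum + KLH over alum with 1 TPM added (vertical axis) against the mean log2(TPM + 1) of the pools (horizontal axis), with grey points for the 11648 genes above 3 TPM in at least 1 pool and dark points for the 10 regulators, whose bars give the SD of the 500 genes closest in level. Every regulator lies well inside the dotted lines at a 2-fold difference, and 110 grey points fall beyond the ends of the vertical axis.

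The partner lists also held no gene 2-fold apart, a limit that 1.64% of the 11648 genes above 3 TPM in at least 1 pool passed. Of those 11648 genes, 56.4% had ratios below 0 and the median was -0.02. With 1 library per group, the direction of a list was not tested. The 10 BCL11 partners had a median ratio of -0.21, with 9 of 10 below 0 and Smarcb1, a core BAF subunit, the lowest at 13.2 and 9.97 TPM (-0.37 beside a neighbour SD of 0.22). The 8 PRDM partners above 3 TPM had a median of -0.02 and Bach1 and the 3 small MAF genes one of -0.03. Of the 6 IRF paralogues above 3 TPM in at least 1 pool, 5 had ratios below 0, and Irf3 at 3.42 and 2.09 TPM was the lowest at -0.52, within its neighbour SD of 0.66. Irf1 at -0.35 beside 0.16 and Irf7, at 7.28 and 5.40 TPM, at -0.37 beside 0.22 exceeded theirs. As these SDs were uneven between genes of near level, exceeding them is only a description. The 10 other B-lineage regulators above 3 TPM had a median of 0.08 with 9 of 10 above 0. The exception was Id3, at 7.78 and 5.06 TPM (-0.54 beside 0.22), named after its values were seen. The sensory neuron factors above 3 TPM had a median of 0.06, with 7 of 10 above 0, and the nociceptor genes one of -0.11, with 8 of 11 below 0.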

How the data were processed

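The authors prepared stranded mRNA libraries from 2 pools of DRG neurons, sequenced paired-end reads, trimmed them with cutadapt and quantified them with kallisto on the annotated mouse transcriptome of mm10. Tool versions are not given in the sources used here, and the same holds for whether kallisto used strand. The deposited tables list, for each RefSeq transcript, its TPM, with each library summing to 1000000. The files give no read counts, so no depth per value, interval or floor was computed.

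TPM was summed over the rows with the same symbol. Log2 ratios used a pseudocount of 1 TPM, and genes above 3 TPM in at least 1 pool formed the background. The regulators and the 21 other gene lists were chosen with earlier results of these data known. All regulators and all genes of the partner and paralogue lists could be named, and from other lists the 3 highest, any gene at 0 in both pools and any gene at least 2-fold apart. With 2 libraries, no gene was named for likeness of pattern.

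Positions and sequences came from GENCODE M21 (GRCm38), in which all 21 RefSeq transcripts matched 19 counterparts. Words of 31 bases were compared in either orientation with all annotated transcripts. Calculations used Python 3.11.15, numpy 2.4.6, pandas 2.3.3 and matplotlib 3.10.9 and were tested on simulated data. The alternatives run changed the detection threshold to 0.1, 1 or 10 TPM, the pseudocount to 0.1 or 0.5 TPM, or the filter on low values, read each gene on its highest transcript, divided out the median ratio between the pools (0.987), or took TPM relative to Hprt.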

Additional observations from a re-analysis of the deposited data

How the results depend on the processing

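Of 65 recomputed values, 61 stayed within the SD of genes of like level or, for counts, within 1.5 times the reported count. With a threshold of 10 TPM, 3 regulators were above it in each pool in place of 6. At 1 TPM the count was 8 and at 0.1 TPM it was 9 in each pool. Both fall within the 1.5-fold rule, but the count depends on the threshold. Read on its highest transcript over both pools, Ebf2 had a log2 ratio of 0.85 in place of -0.12, because its transcripts exchanged places. A pseudocount of 0.1 TPM took the ratio of Irf4 from -0.11 to -0.49, since the added amount is then below its TPM. No regulator that passed the filter was 2-fold apart under any pseudocount or filter run. Leaving out a library was impossible with 1 per group. No paired analysis was possible because each group has 1 library. Depth limits Irf4, Pax5 and the minor transcripts most, and the reads behind them are not known from TPM.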
